A study of Rattus norvegicus with 4 samples.

Results

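The genes described here are the heat shock proteins and chaperones of rat skeletal muscle, chosen by gene symbol alone. They are the genes whose symbol in the array annotation starts with Hspa, Hspb, Hspd, Hspe, Hsph, Dnaja, Dnajb, Dnajc, Bag or Cct followed by a digit, or with Hsp90. The symbol rule itself uses no difference between arrays, but it was set with earlier results of these data known. It gave 75 of the 14218 genes that had a probe set of their own on the array, on 113 probe sets. Where a gene had several, the one with the highest mean over the 4 arrays stood for it. Of the 75 genes, 69 were measured, that is, had a signal above a floor of 30.1 on at least 1 array. The other 6 (Hspa1l, Hspa4l, Hspb9, Dnajb3, Dnajb7 and Dnajb13) were at or under that floor on all 4 arrays. By family, the measured genes were 6 of 7 small heat shock proteins, 10 of 12 genes of Hsp70 and Hsp110, 2 of 2 of Hsp90, 36 of 39 J-proteins, 6 of 6 Bag genes, the 2 subunits of the mitochondrial chaperonin and 7 of 7 Cct subunits of the cytosolic chaperonin. Hspa8, Hspa1b and Hsp90aa1 had no probe set with a single symbol and were not analysed here.

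Muscle RNA from rats of the F344/DuCrlCrlj strain was hybridised to 4 single-colour arrays, 1 for each of the groups sham, ischemia, ischemia + ES (electrical stimulation) and ischemia + exercise. The last 3 groups share the ischemia of the hindlimb, and the study set both kinds of muscle contraction against ischemia in a rat model of claudication. Not given in the sources used here are the muscle, the animals per array with their age and sex, and how and when ischemia, stimulation and exercise were applied. With 1 array per group there is no replicate check and no test, so every ratio below describes 2 arrays and is read beside the same ratio over all 10092 measured genes.

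Chaperones bind unfolded proteins and help them to fold, to cross membranes or to be degraded. Small heat shock proteins hold unfolding proteins in a soluble state without using ATP and are known in muscle for their binding to the contractile filaments and the cytoskeleton. Hsp70 proteins fold clients in cycles of ATP binding that J-proteins start and Bag proteins and Hsp110 help to end, and Hsp90 acts on partly folded clients such as kinases and receptors. When unfolded proteins build up, heat shock factor 1 binds heat shock elements in the promoters of many of these genes.

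The arrays were alike in level, with median signals of 29.0 to 31.8 and 49.3% to 51.1% of probe sets above the floor. This likeness is in large part built in and is no check of quality. The deposited intensities of each array already had a trimmed mean of 150.1, and the floor is the 50th percentile of all values. The 3'/5' signal ratio of the actin control, which rises with RNA degradation, was 5.94 on the ES array and 3.81 to 4.38 on the others. Fast fibre markers were present on every array, with a summed signal over 12 genes of 123040 to 130697. The summed signal of 10 slow fibre markers was 66333 on sham, 11603 on ischemia, 23214 on ES and 76603 on exercise. That of 14 macrophage markers was 2075, 4654, 5475 and 2136 in the same order, and 1 of these, Itgam, was under the floor on all arrays. The higher sum on ES than on ischemia was not shared by most of these genes. Of the 13 measured, 6 were higher on ES and 7 lower, with a median log2 ratio of -0.05. The 9 endothelial markers summed to 2466, 2352, 4769 and 2599, the 9 fibroblast markers to 12048, 19412, 18015 and 12228, and the 3 measured erythroid markers to 10600, 7151, 6898 and 7179. The part of these shifts in the chaperone ratios was not tested, and in bulk RNA fewer cells of a type and less RNA per cell cannot be told apart.

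The chaperones as a whole differed little between the arrays, and 3 genes stood out, namely Hspb7, Hspa1a and Hspa2. These were the members whose highest signal was at least 2 times the lowest, 3 of 69 (4.35%) beside 8.08% of all measured genes. At 1.5 times the count was 15 of 69 (21.7%) beside 29.9% of all genes, so 54 of 69 members stayed within 1.5-fold over the 4 arrays. All 3 of these genes were highest on exercise, then on sham, then on ES and lowest on ischemia, which is also the order of the summed slow fibre markers. Probe sets with several symbols are left out of these counts. The signal of 1 of them, described at the end, had log2 ratios of -2.96 for ischemia over sham and 3.68 for exercise over ischemia.

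**Figure D1:**
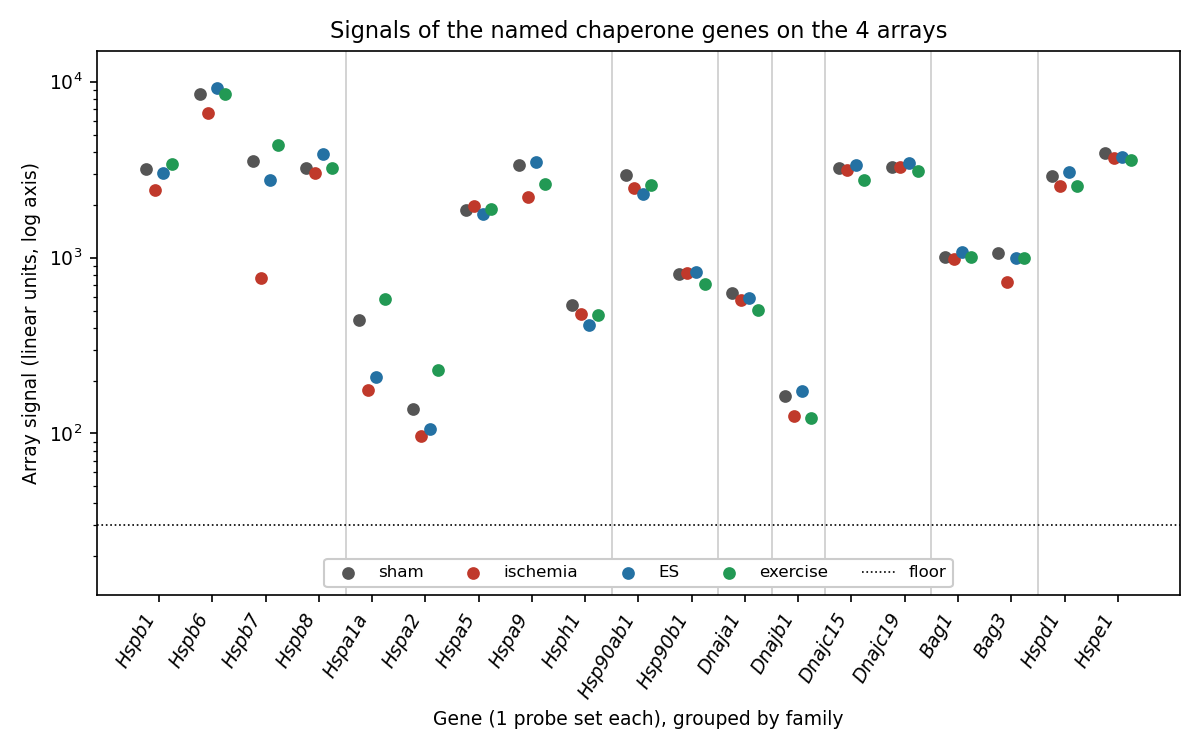
Signals of the 19 chaperone genes named by rule on the 4 arrays (log axis, linear array units), 1 point per array and grouped by family, with the floor of 30.1 as a dotted line. Hspb7, Hspa1a and Hspa2 spread over more than 2-fold, while the points of most other genes lie close together; levels of different genes are not comparable, since each comes from another probe set.

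Hspb7, the small heat shock protein known from heart and skeletal muscle, had a signal of 3546 on sham, 767 on ischemia, 2754 on ES and 4395 on exercise. The ischemia array was 4.62-fold below sham, ES was 3.59-fold above ischemia and exercise 5.73-fold above ischemia. Only 16 of the 10092 measured genes had a lower ratio of ischemia to sham, 10 had a higher ratio of ES to ischemia and 16 a higher ratio of exercise to ischemia. ES lay 1.29-fold below sham and exercise 1.24-fold above it, so both treated arrays were nearer to sham than to ischemia. These values came from the brighter of 2 probe sets. The dimmer one gave 215.6, 134.2, 130.4 and 249.1 on sham, ischemia, ES and exercise, which is a log2 ratio of -0.68 for ischemia over sham, 0.89 for exercise over ischemia and -0.04 for ES over ischemia. Both probe sets were thus lower on ischemia than on sham and higher on exercise than on ischemia, and the higher value on ES was seen with the brighter probe set and not with the dimmer.

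Hspa1a, the stress-inducible cytosolic Hsp70, had a signal of 443.1 on sham, 176.8 on ischemia, 208.9 on ES and 580.1 on exercise. It was 2.51-fold lower on ischemia than on sham and 3.28-fold higher on exercise than on ischemia, while ES was 1.18-fold above ischemia. The sham and exercise arrays were therefore high and the ischemia and ES arrays low. ES was 2.78-fold below exercise and 2.12-fold below sham, and 34 of all measured genes had a lower ratio of ES to exercise. Hspa1a has a near-identical copy, Hspa1b, so the signal of its only probe set with a single symbol cannot be assigned to 1 copy.

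Hspa2, an Hsp70 best known from male germ cells, had a signal of 137.5 on sham, 96.3 on ischemia, 106.5 on ES and 230.5 on exercise. Exercise was 2.39-fold above ischemia, 2.16-fold above ES and 1.68-fold above sham, so the exercise array stood above the other 3. Ischemia was 1.43-fold below sham. A second, dimmer probe set gave 31.1, 11.9, 21.7 and 44.3 on sham, ischemia, ES and exercise, at or under the floor on ischemia and ES.

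Promoter windows from RefSeq (assembly GRCr8, 250 bases before to 50 after the annotated start, 5′ to 3′) are shown for these 3 genes and for 2 further members that hold a run of 3 heat shock units. The motif searched was a pair of inverted units, GAANNTTC or TTCNNGAA, and each form reads the same on both strands. The longer form was a run of 3 units in alternating orientation with the same spacing, so that it holds 2 overlapping pairs. Capitals mark every match. Hspb7 lies at chr5:159010509-159010808, Hspa1a at chr20:3859506-3859805, Hspa2 at chr6:100864192-100864491, Hsph1 at chr12:10427118-10427417 and Hspe1 at chr9:64084077-64084376, all on the plus strand.
Hspb7: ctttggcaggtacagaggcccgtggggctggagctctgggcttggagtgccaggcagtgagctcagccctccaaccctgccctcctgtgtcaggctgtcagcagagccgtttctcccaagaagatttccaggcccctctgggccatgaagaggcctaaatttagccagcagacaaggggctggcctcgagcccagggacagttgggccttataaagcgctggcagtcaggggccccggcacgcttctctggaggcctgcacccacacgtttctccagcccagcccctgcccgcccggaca
Hspa1a: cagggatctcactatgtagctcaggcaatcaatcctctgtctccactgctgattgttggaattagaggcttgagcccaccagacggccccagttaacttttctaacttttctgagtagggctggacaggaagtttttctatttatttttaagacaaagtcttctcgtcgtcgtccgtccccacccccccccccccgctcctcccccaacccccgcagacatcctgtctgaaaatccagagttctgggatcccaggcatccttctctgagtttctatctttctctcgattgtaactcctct
Hspa2: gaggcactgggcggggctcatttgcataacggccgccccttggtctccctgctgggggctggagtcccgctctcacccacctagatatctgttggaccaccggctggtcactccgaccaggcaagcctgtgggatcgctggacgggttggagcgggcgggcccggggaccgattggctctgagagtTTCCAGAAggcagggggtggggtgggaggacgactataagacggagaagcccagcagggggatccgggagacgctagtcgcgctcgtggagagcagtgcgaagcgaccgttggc
Hsph1: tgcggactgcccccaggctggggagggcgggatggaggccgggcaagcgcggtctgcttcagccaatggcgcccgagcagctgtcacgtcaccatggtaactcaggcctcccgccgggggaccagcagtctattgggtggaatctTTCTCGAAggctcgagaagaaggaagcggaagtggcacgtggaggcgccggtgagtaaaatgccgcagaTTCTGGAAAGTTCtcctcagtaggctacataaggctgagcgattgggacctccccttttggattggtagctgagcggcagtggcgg
Hspe1: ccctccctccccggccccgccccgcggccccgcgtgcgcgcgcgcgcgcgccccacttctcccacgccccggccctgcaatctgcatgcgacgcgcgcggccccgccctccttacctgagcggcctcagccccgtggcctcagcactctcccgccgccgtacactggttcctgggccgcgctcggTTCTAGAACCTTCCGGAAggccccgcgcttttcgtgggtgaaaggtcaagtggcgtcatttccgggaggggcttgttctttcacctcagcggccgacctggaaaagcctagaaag

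A window was found for 63 of the 75 members. A pair of units was in the window of 18 of them (28.6%) beside 16.7% of the 27457 genes with a window, and a run of 3 units in 5 (7.94%) beside 0.794%. The 5 were Dnaja1, Hsph1, Hspd1, Hspe1 and Cct4. The windows of Hspd1 and Hspe1 share 211 bases, since the 2 genes of the mitochondrial chaperonin lie head to head, and they hold the same 3 matches. None of the 5 differed by 2-fold in any comparison. By their brightest probe sets, their log2 ratios ran from -0.19 to -0.10 for ischemia over sham and from -0.20 to 0.26 for ES over ischemia. For exercise over ischemia they ran from -0.18 to 0.17. A second Hsph1 probe set lay outside the ES range, at -0.56. The Hspa2 window held 1 pair, 64 bases before the start. The letters of the motif are not in the Hspb7 and Hspa1a windows shown. Each window covers 300 bases around 1 annotated start. Sequence outside it, or at another start of the gene, was not searched, so a heat shock element elsewhere would be missed.

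For ischemia against sham, 2 of 69 members were at least 2-fold lower on ischemia (Hspb7 and Hspa1a) and 0 were higher, where 0.862% of all measured genes were lower and 0.783% higher. At 1.5-fold, 4 were lower and 1 was higher beside 3.19% and 4.94% of all genes. Hspa9 and Dnaja4 joined the lower genes, and Hspa14, a ribosome-bound Hsp70, was the higher one at 157.4 on ischemia and 96.6 on sham. Small differences also leaned to one side. The ratio was below 0 on the log2 scale for 47 of 69 members and above 0 for 20, a share below 0 of 68.1% beside 45.6% of all genes, with a median of -0.09 beside 0.00.

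For ES against ischemia, 1 of 69 members was at least 2-fold higher (Hspb7) and 0 were lower, beside 2.28% and 0.793% of all genes. At 1.5-fold, 3 were higher (Hspb7, Hspa9 and Hspa12a) and 4 lower (Hspa13, Dnajb9, Dnajb12 and Dnajc21), beside 9.8% and 4.72%. The median was 0.04 beside 0.05 over all genes. The members past either fold were thus no larger a share on the higher side than genes at large.

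For exercise against ischemia, 3 of 69 members were at least 2-fold higher (Hspb7, Hspa1a and Hspa2) and 0 were lower, beside 1.14% and 0.872% of all genes. At 1.5-fold, 5 were higher with the addition of Dnaja4 and Bag2, and 0 were lower, beside 4.02% and 4.24%. The median was 0.06 beside 0.00. The comparisons with ischemia share the ischemia array, so a low value there enters all of them.

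ES and exercise can also be compared directly, without the ischemia array. Here 2 of 69 members were at least 2-fold lower on ES than on exercise (Hspa1a and Hspa2) and 0 were higher, beside 1.1% and 2.95% of all genes. At 1.5-fold, 7 were lower (Hspb7, Hspa1a, Hspa2, Dnajb5, Dnajb9, Dnajc2 and Dnajc21) and 2 higher (Hspa12a and Dnajc1), beside 4.6% and 10.5%. The median was -0.07 beside 0.03. Against sham, Hspa1a was the 1 member at least 2-fold lower on ES and 0 were higher, beside 1.06% and 3.78% of all genes. No member differed by 2-fold between exercise and sham, where 0.258% of all genes were higher and 0.188% lower.

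**Figure D2:**
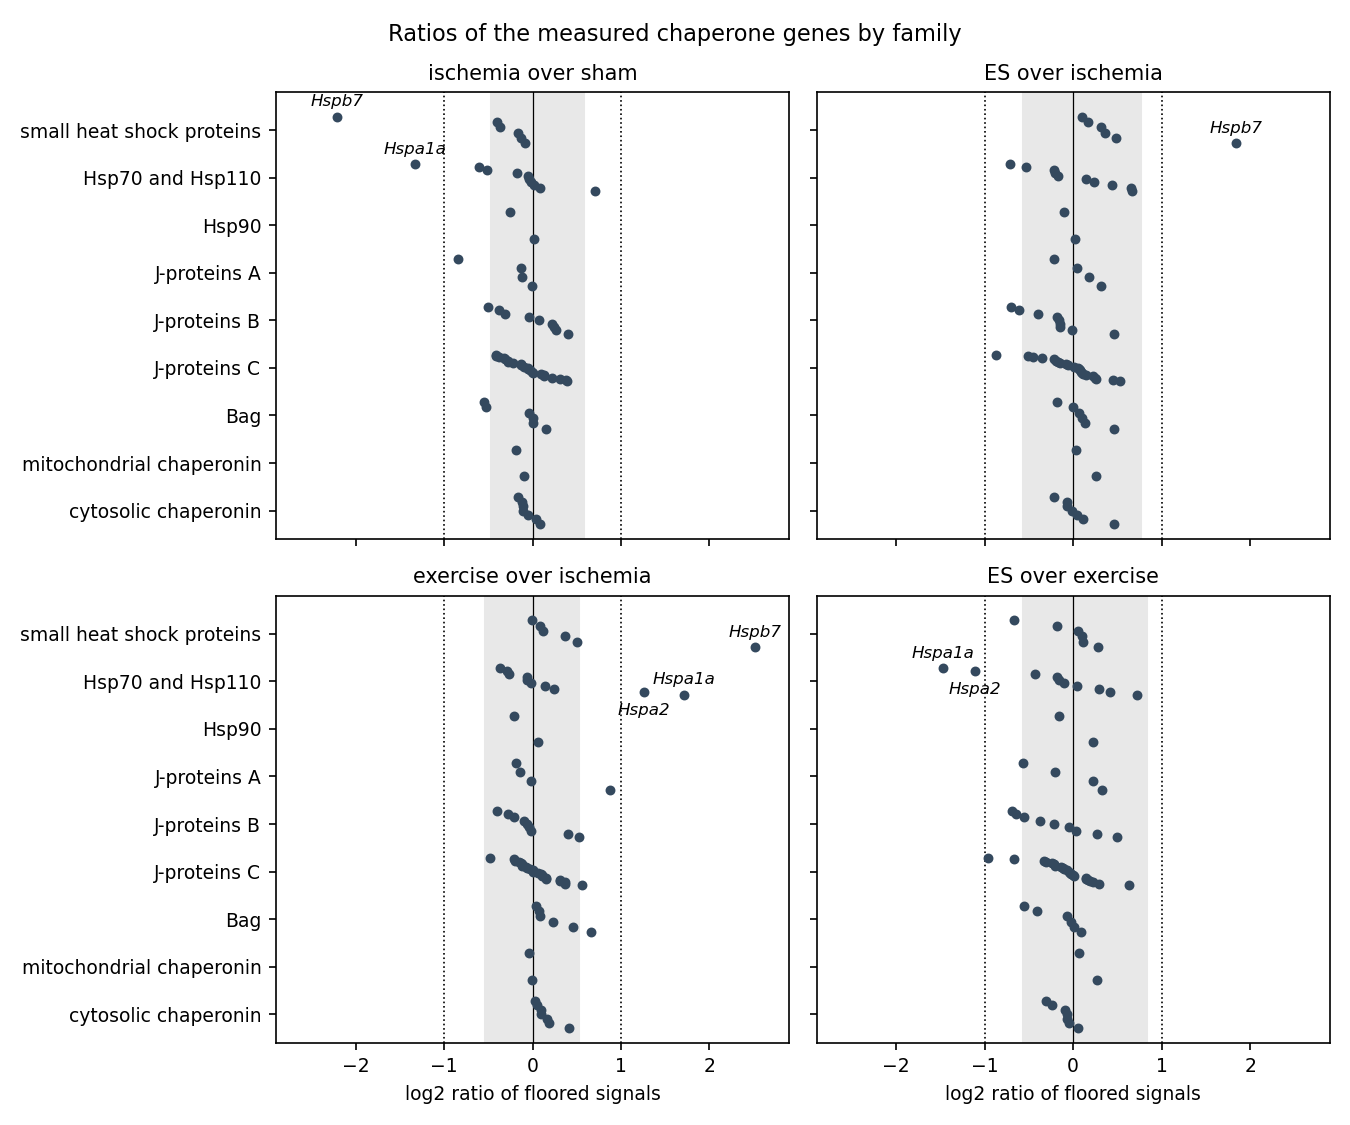
Log2 ratios of the 69 measured chaperone genes in the 4 comparisons, 1 point per gene, by family; grey bands run from the 5th to the 95th percentile of all 10092 measured genes and dotted lines mark 2-fold. Points past 2-fold are named, and they are Hspb7, Hspa1a and Hspa2 alone; the first 3 comparisons share the ischemia array.

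The small heat shock proteins were lower on ischemia than on sham in 6 of 6 measured genes, with a median log2 ratio of -0.27, where 45.6% of all measured genes were lower. ES was above ischemia in 6 of 6, with a median of 0.34, beside 56.0% of all genes, and exercise above ischemia in 5 of 6, with a median of 0.24, beside 47.7%. Ischemia was the lowest of the 4 arrays for 5 of the 6 (Hspb1, Hspb2, Hspb6, Hspb7 and Hspb8), where 24.3% of all genes were lowest on ischemia. These counts use the brightest probe set. Only Hspb7 and Hspb8 had another, and neither was lowest on ischemia. That of Hspb7 had 130.4 on ES against 134.2 on ischemia, and that of Hspb8 had 327.2 on exercise against 347.2 on ischemia. Apart from Hspb7, the ratios of this family stayed under 1.5-fold. Hspb1, the protein known as Hsp27 or Hsp25, which guards actin filaments, had 3184 on sham, 2420 on ischemia, 3012 on ES and 3427 on exercise. Hspb6 (Hsp20), a partner of the crystallins in muscle, had 8508, 6614, 9233 and 8544 on the same arrays. Both were low on ischemia and near the sham level on ES and exercise. Hspb8, which works with Bag3 in clearing damaged filament proteins, had 3222, 3035, 3902 and 3219, with ES 1.29-fold above ischemia and the other 3 arrays close together. Hspb2 ran from 550.5 to 619.1 and Hspb3 from 977.2 to 1103.

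Outside Hspa1a and Hspa2, the Hsp70 and Hsp110 genes showed no shared direction. The family median, with Hspa1a and Hspa2 included, was -0.05 for ischemia over sham, -0.01 for ES over ischemia and -0.04 for exercise over ischemia. Hspa9, the Hsp70 that pulls proteins into mitochondria, had 3361 on sham, 2214 on ischemia, 3494 on ES and 2620 on exercise, so ischemia was 1.52-fold below sham and ES 1.58-fold above ischemia. Of its 3 other probe sets, the 1 above the floor on all arrays gave log2 ratios of -0.09 and 0.02 for those comparisons, far smaller than the brightest. Hspa5 (BiP), the Hsp70 of the endoplasmic reticulum, ranged from 1758 on ES to 1976 on ischemia. Hspa13, a microsomal Hsp70, had 219.0 on sham, 213.1 on ischemia, 129.8 on ES and 174.4 on exercise, lowest on ES by 1.64-fold against ischemia. Hspa12a, a distant relative, was the reverse, with 96.8 on ES and 58.7 to 62.0 on the other 3 arrays. Of the Hsp110 type, which exchanges the nucleotide of Hsp70, Hspa4 ran from 479.0 on exercise to 596.6 on sham and Hsph1 from 414.4 on ES to 537.7 on sham. A second, dimmer Hsph1 probe set gave log2 ratios of -0.56 for ES over ischemia and 0.12 for exercise over ischemia, where the brighter gave -0.20 and -0.02. Hspa12b was under the floor on sham and at 30.4 to 41.1 elsewhere.

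Both Hsp90 genes were nearly level by their brightest probe sets. Hsp90ab1, the cytosolic form made under normal conditions, had 2960 on sham, 2476 on ischemia, 2309 on ES and 2578 on exercise, and no pair of arrays in the comparisons above differed by as much as 1.5-fold. Hsp90b1 (Grp94), the form of the endoplasmic reticulum, had 808.3, 819.8, 829.9 and 709.2, with exercise lowest. A second Hsp90ab1 probe set gave log2 ratios of -0.19 for ischemia over sham and -0.21 for exercise over ischemia. Its ES value was lower than the brighter probe set showed, with log2 ratios of -0.73 for ES over ischemia and -0.91 for ES over sham.

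The 36 measured J-proteins, which bring clients to Hsp70 and start its cycle, held no gene past 2-fold in any of the 4 comparisons. Their medians were -0.05 for ischemia over sham, -0.02 for exercise over ischemia and -0.06 for ES over exercise. By class, the medians for ES over ischemia were 0.11 for the 4 genes of class A, -0.16 for the 9 of class B and 0.06 for the 23 of class C. In class B, 8 of 9 genes were lower on ES than on ischemia, beside 41.7% of all measured genes. Class A and B proteins carry the domains of the bacterial DnaJ in full or in part, and class C proteins keep the J domain alone.

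In class A, Dnaja4 had 1957 on sham, 1090 on ischemia, 1357 on ES and 2007 on exercise, in the array order of Hspb7. Ischemia was 1.8-fold below sham and exercise 1.84-fold above ischemia, and the other probe set gave log2 ratios of -0.37 and 0.33 for those comparisons but -0.59 for ES over ischemia, where the brighter gave 0.32. Dnaja1, a main cytosolic partner of Hsp70, stayed between 504.2 and 626.9. In class B, Dnajb1 (Hsp40), a target of heat shock factor 1, had 163.3, 125.9, 173.5 and 122.9 on sham, ischemia, ES and exercise, high on sham and ES and low on the other 2 arrays. Dnajb5 had 1193, 841.3, 751.7 and 1214, and Dnajb4 had 1176, 944.8, 853.3 and 1252. Both were high on sham and exercise and low on ischemia and ES, with ES 1.62-fold below exercise for Dnajb5 and 1.47-fold for Dnajb4. The probe sets of Dnajb5 disagreed in part. For exercise over ischemia the brightest gave a log2 ratio of 0.53 and the next brightest 0.82, while the dimmest gave -0.20. The signals of the dimmest, 36.1 to 47.2, were near the floor.

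In class C, Dnajc21, a factor of ribosome maturation, had 826.0 on sham, 773.5 on ischemia, 423.1 on ES and 824.6 on exercise, so ES alone was low, 1.83-fold under ischemia and 1.95-fold under exercise. Dnajc2, a J-protein bound to ribosomes, had 745.5, 596.9, 417.4 and 661.3, again lowest on ES. Over all members, 21 of 69 (30.4%) were lowest on ES, where 24.9% of all genes were. A like number, 22 of 69 (31.9%), were lowest on ischemia, beside 24.3% of all genes. The mitochondrial J-proteins Dnajc15 and Dnajc19, which work at the import motor, ran from 2752 to 3359 and from 3116 to 3441.

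The members of mitochondria and of the endoplasmic reticulum had median ratios of opposite sign between ischemia and ES. This grouping by compartment was made after the values were seen, so its counts describe these arrays and carry no support of their own. Of 8 members that work in mitochondria (Hspa9, Hspd1, Hspe1, Dnaja3, Dnajc11, Dnajc15, Dnajc19 and Dnajc30), 8 were lower on ischemia than on sham and 8 higher on ES than on ischemia by their brightest probe set, with medians of -0.16 and 0.22, beside 45.6% and 56.0% of all genes. The other Dnajc11 probe set above the floor turned both directions, at 0.14 and -0.06. All of these log2 ratios but those of Hspa9 stayed under 1.5-fold. On exercise, 3 of the 8 were higher than on ischemia and 5 lower, with a median of -0.02, beside 47.7% and 48.7% of all genes. Of 12 members of the endoplasmic reticulum, 8 were higher on ischemia than on sham and 8 lower on ES than on ischemia, with medians of 0.09 and -0.16, beside 50.3% and 41.7% of all genes. Exercise was below ischemia in 10 of the 12, with a median of -0.14, beside 48.7%. The lower values on ES were not shared by 21 further genes of endoplasmic reticulum folding and the unfolded protein response, of which 9 were lower and 11 higher on ES than on ischemia, with a median of 0.00. Dnajb9, a BiP partner made in the unfolded protein response, had 784.5 on sham, 913.1 on ischemia, 559.7 on ES and 877.9 on exercise. Dnajc3, which restrains the stress kinases of translation, had 435.4, 507.5, 369.9 and 466.7, and Dnajb12, which sits in the membrane of the reticulum, had 161.3, 212.7, 139.5 and 161.6. All 3 were highest on ischemia and lowest on ES by their brightest probe set. The other Dnajb12 probe set was also highest on ischemia but lowest on sham, at 95.1 on sham and 96.5 on ES.

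**Figure D3:**
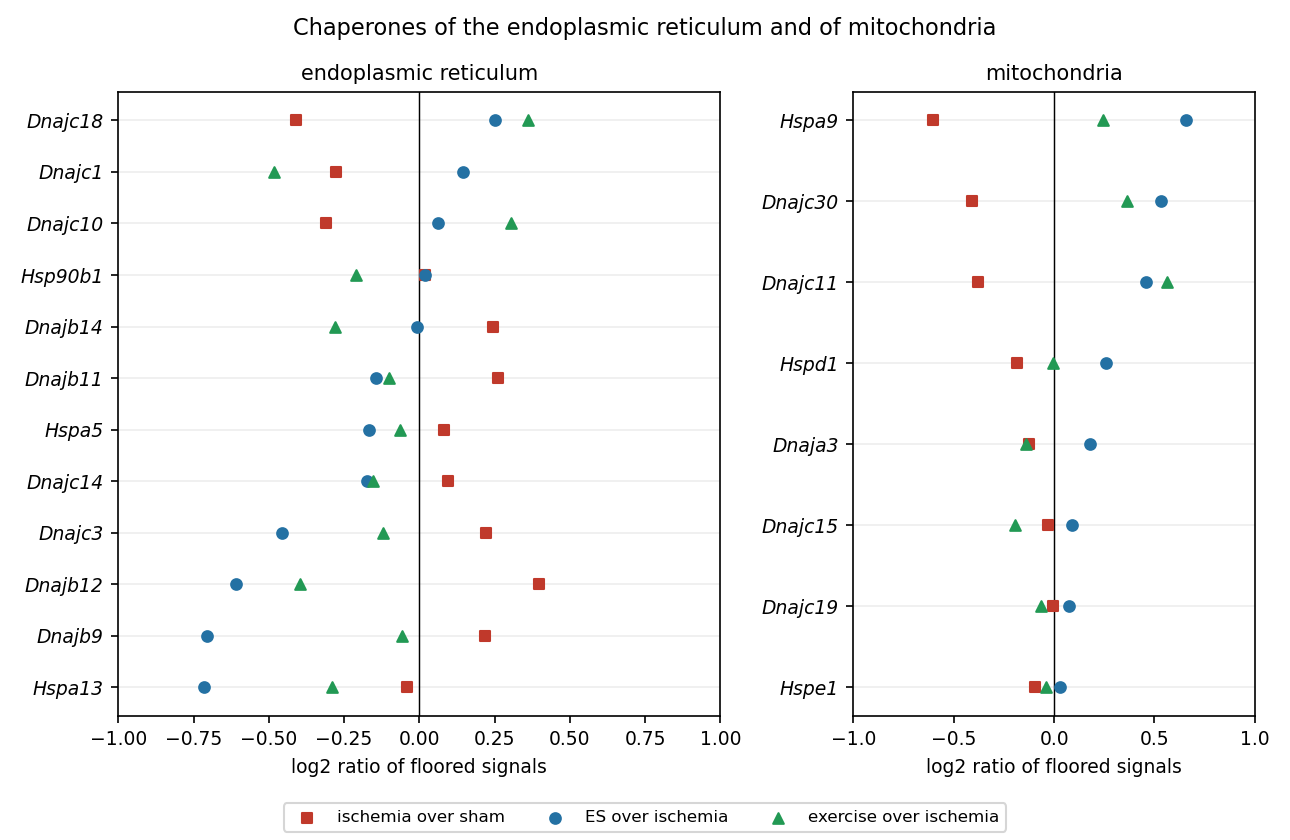
Log2 ratios of the 12 endoplasmic reticulum members and the 8 mitochondrial members, 1 row per gene and 1 symbol per comparison (squares for ischemia over sham, circles for ES over ischemia, triangles for exercise over ischemia). All 8 circles of the mitochondrial panel lie above 0 and 8 of the 12 circles of the endoplasmic reticulum lie below it; the comparisons share the ischemia array.

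The Bag proteins, which release clients from Hsp70, and the chaperonins differed little between the arrays. Bag3, which links Hsp70 to Hspb8 and to autophagy at the Z-disc, had 1058 on sham, 723.7 on ischemia, 998.4 on ES and 994.7 on exercise. Ischemia was thus the low array, 1.46-fold below sham, and ES and exercise were nearly equal. Bag2, which holds back the ligase that marks Hsp70 clients, had 377.6, 263.2, 283.0 and 414.7, low on ischemia and ES. Bag1 ran from 980.8 to 1076. Hspd1 (Hsp60) had 2921, 2567, 3074 and 2558, and its lid Hspe1 ran from 3569 to 3926. The 7 Cct subunits, which fold actin and tubulin, were above ischemia on exercise in 7 of 7, with a median of 0.10, beside 47.7% of all genes, and below sham on ischemia in 5 of 7, beside 45.6%. A second Cct5 probe set gave -0.05 for exercise over ischemia. The largest of these was Cct3, with 802.3, 715.1, 985.6 and 950.5.

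The split of the arrays seen for Hspa1a, with sham and exercise above ischemia and ES, was shared by more members than its opposite. It was read from these same arrays and Hspa1a is counted in it, so the counts describe these arrays and carry no support of their own. Sham and exercise were both above ischemia and ES for 19 of 69 members (27.5%) beside 14.3% of all genes, and both below them for 3 of 69 (4.35%) beside 20.9%. The 19 held 2 small heat shock proteins, Hspa1a, Hspa2, Hsp90ab1, 3 Cct subunits, Bag2 and 10 J-proteins. They did not all follow the full order of Hspa1a, since some, such as Hsp90ab1 and Dnajb5, were lowest on ES and not on ischemia. The 3 were Hsp90b1, Dnajb14 and Dnajc24. Sizes were mostly small, and the slow fibre markers given above were also higher on sham and exercise.

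Genes of the same pathways that the symbol rule leaves out were taken from 6 lists. Among the heat shock factors and their regulators, 0 of 7 measured genes passed 2-fold in any of the 4 comparisons. Hsf1, the main activator, ran from 250.8 to 272.3. Fkbp5, a co-chaperone of the steroid receptors with Hsp90, had 241.4 on sham, 420.2 on ischemia, 220.2 on ES and 390.1 on exercise, high on ischemia and exercise, and its other probe set went the other way for ischemia over sham, at -0.40 against 0.80 on the log2 scale. Of the co-chaperones of Hsp70 and Hsp90, 0 of 23 passed 2-fold. Unc45b, which folds myosin, had log2 ratios of -0.04 for ischemia over sham and 0.05 for exercise over ischemia, and Stip1, which hands clients from Hsp70 to Hsp90, had 0.18 and -0.10. Of the 8 measured crystallins and partners of Bag3 and Hspb8, 0 did. Cryab, the small heat shock protein αB-crystallin, which the symbol rule does not take, was the low case on ischemia at 4516, against 7999 on sham, 7549 on ES and 8116 on exercise. Its log2 ratio was -0.82 for ischemia over sham, 0.74 for ES over ischemia and 0.85 for exercise over ischemia.

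Of 21 measured genes of endoplasmic reticulum folding and the unfolded protein response, 1 was at least 2-fold higher on exercise than on ischemia and 0 were lower. This was Ddit3 (CHOP), a transcription factor of the stress response, with a log2 ratio of 1.27. In that list 1 gene, the collagen chaperone Serpinh1, was at least 2-fold higher on ES than on exercise, with a log2 ratio of 1.12. Of the 13 mitochondrial chaperones and proteases, Timm44, which anchors the import motor, was the 1 gene past 2-fold for ES over ischemia, with a log2 ratio of 1.14. That list was below sham on ischemia in 12 of 13 genes and above ischemia on ES in 12 of 13, with medians of -0.16 and 0.35, beside 45.6% and 56.0% of all genes. The list of the endoplasmic reticulum was above sham on ischemia in 14 of 21 genes, beside 50.3%, with its ES values split as given above. Of the 13 measured genes of prefoldin, Tcp1 and the tubulin cofactors, 0 passed 2-fold.

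How far a ratio depends on the probe set can be read from the 15 members with more than 1 probe set above the floor on all arrays. The median gap between 2 probe sets of a gene was 0.15 on the log2 scale for ischemia over sham, 0.27 for ES over ischemia and 0.27 for exercise over ischemia, beside 0.20, 0.24 and 0.20 over 1844 genes of that kind. The largest gap in each of these was that of Hspb7, at 1.53, 1.89 and 1.63. The brightest and next probe sets had opposite signs in 2 of the 15 for ischemia over sham (Cct8 and Dnajc11), beside 39.2% of the 1844 genes. For ES over ischemia this held for 7 of 15 (Hspb7, Dnaja1, Dnaja4, Dnajc10, Dnajc11, Cct5 and Cct8), beside 31.3%. For exercise over ischemia it held for 8 of 15 (Hspa9, Hsp90ab1, Hsph1, Hspb8, Dnaja1, Dnajc10, Dnajc11 and Cct5), beside 40.5%. Most family medians given above are smaller than these typical gaps.

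**Figure D4:**
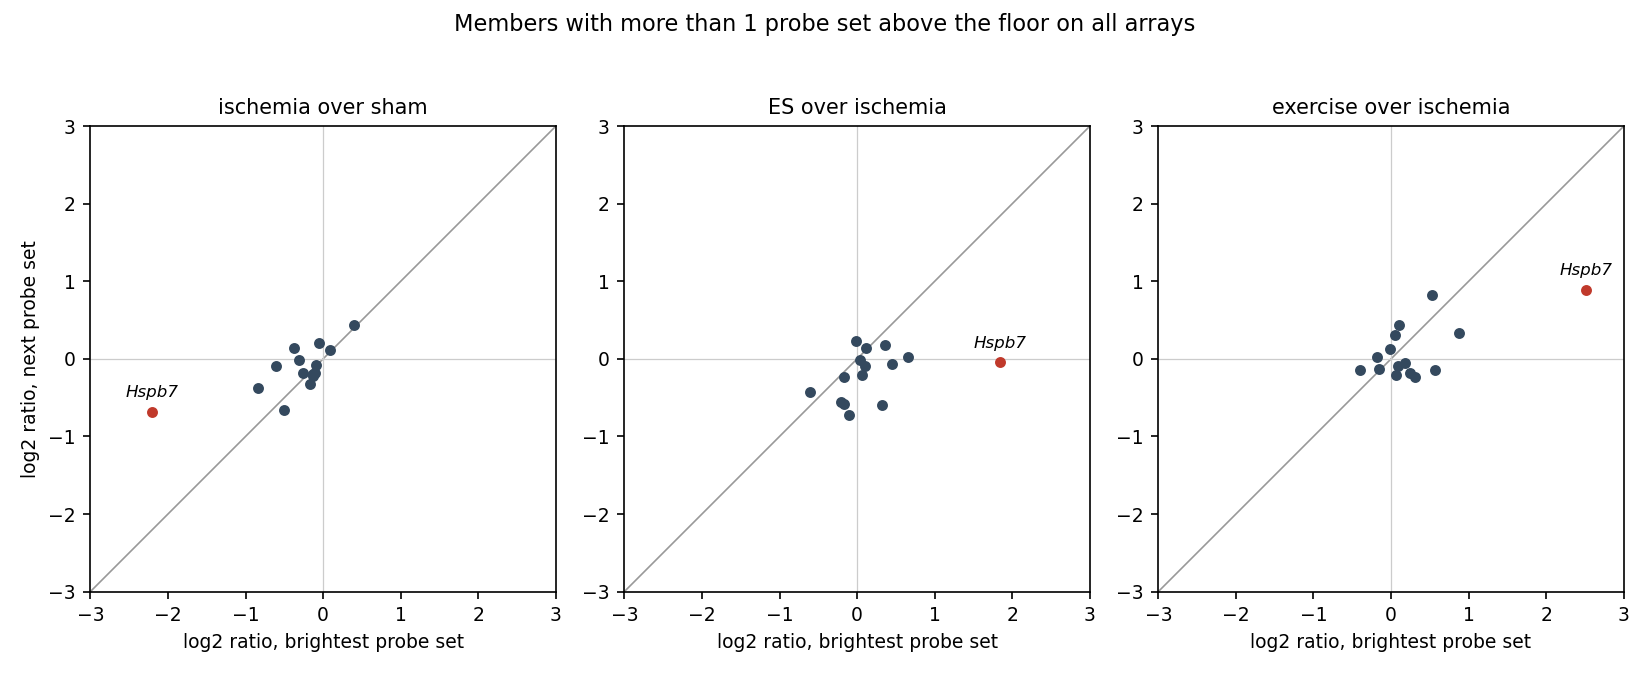
Log2 ratio from the brightest probe set (x axis) against that from the next brightest (y axis) for the 15 members with more than 1 probe set above the floor on all arrays, in 3 comparisons, with the line of equal values. Hspb7 (red) lies far from the line in each panel, on the same side of 0 with both probe sets for ischemia over sham and for exercise over ischemia, and near 0 with the next probe set for ES over ischemia.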

How the data were processed

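Rat skeletal muscle RNA was measured on 4 arrays, 1 per group, with groups taken from the sample titles. The values deposited by the authors are linear intensities, 1 for each probe set of an array, and the submitters' processing notes name MAS5 with no version. Per the labels' protocols, cRNA was primed at the 3' end. Such scaled intensities hide differences in total mRNA. Gene symbols came from a platform annotation of 2016: 20832 of 31099 probe sets had 1 symbol, 436 had several and 9831 had none. All 75 member gene IDs were found in RefSeq (GRCr8), and 0 symbols differed.

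The intensities were scaled to a common mean trimmed by 2% at each tail, set to a floor at the 50th percentile (30.1), and log2 ratios of 2 arrays were taken. Counts use 2-fold and 1.5-fold. Genes were named as the 2 brightest of each family, members and listed pathway genes past 2-fold, and a set of fixed genes. The other members with values, and Fkbp5, were added after their values were seen. The members, lists and rules were chosen with earlier results of these data known. No p-value was computed, and the number of arrays limits the precision. The alternatives were quantile normalization, floors at the 30th and 70th percentiles, the mean of all probe sets, leaving out probe sets ending in _x_at, and 1.5-fold. The calculations, in Python 3.11.15 with numpy 2.4.6, pandas 2.3.3 and scipy 1.17.1, were tested on simulated data; figures used matplotlib 3.10.9.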

Additional observations from a re-analysis of the deposited data

How the results depend on the processing

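With 1 array per group, no array could be left out and no spread between replicates is known. Median ratios of the members kept their sign under the alternatives run on them, from -0.10 to -0.08 for ischemia over sham, 0.01 to 0.05 for ES over ischemia, 0.02 to 0.06 for exercise over ischemia and -0.07 to -0.05 for ES over exercise. Quantile normalization and a floor at the 70th percentile changed no count of members past 2-fold. Leaving out probe sets whose ID ends in _x_at could change no member, since 0 member probe sets end so. With the floor at the 30th percentile, 1 member was at least 2-fold lower on ES than on ischemia and 1 on exercise than on ischemia, and the lower counts for ischemia over sham and for ES over exercise each went from 2 to 3. With the mean of all probe sets, 0 members were at least 2-fold higher on ES than on ischemia, 2 were higher on exercise than on ischemia and 1 was lower on ES than on exercise; Hspb7 then had log2 ratios of -1.45 for ischemia over sham and 0.90 for ES over ischemia, and Hspa2 had 0.91 for exercise over ischemia and -0.83 for ES over exercise. At 1.5-fold in place of 2-fold, 1 member was higher and 4 lower for ischemia over sham, 3 higher and 4 lower for ES over ischemia, 5 higher for exercise over ischemia, and 2 higher and 7 lower for ES over exercise. The 1.5-fold counts are larger by construction, and the mean takes in dimmer probe sets. The causes of the other moves were not tested. Dim members near the floor have the least certain ratios.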

Other observations

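A further 6 probe sets carry several symbols of which at least 1 matches the rule, so no gene is named from them. The signal of 1 of them was 365.6 on sham, 47.1 on ischemia, 122.5 on ES and 602.5 on exercise, a log2 ratio of -2.96 for ischemia over sham, 1.38 for ES over ischemia and 3.68 for exercise over ischemia. Its arrays stood in the order seen for Hspb7 and Hspa1a. The other 5 had log2 ratios between -0.38 and 0.24 in these comparisons.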
